A study of Mus musculus with 67 samples.

Results

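The epidermal growth factor (EGF) family was followed here through 10 genes, chosen by name: the ligands Areg, Ereg, Hbegf, Tgfa, Btc and Epgn, the receptors Egfr, Erbb2 and Erbb3, and the receptor brake Lrig1. All 10 have a row among the 29579 genes of the expression table. The table held 49 libraries of mouse small intestinal organoids in 10 culture conditions and 18 libraries of small intestinal crypts in 9 groups of mice. Values were in TPM, the share of a library's transcripts that a gene takes after correction for its length.

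The organoids were cultured in ENR or in 8C medium. ENR (n = 7) held EGF at 50 ng/mL, Noggin at 100 ng/mL and R-spondin 1 at 500 ng/mL. The 8C medium (n = 7) held valproic acid (VPA, which blocks histone deacetylases) at 500 µM, the EZH2 inhibitor EPZ6438 at 2 µM, which blocks methylation of histone H3, LDN193189 (an inhibitor of BMP receptors) at 0.2 µM, GSK-3 inhibitor XV at 0.1 µM and Pexmetinib at 1 µM. It also held EGF at 50 ng/mL, basic fibroblast growth factor (bFGF) at 20 ng/mL and 10% R-Spondin 1 conditioned medium. Further organoids grew in 8C from which VPA (n = 6), EPZ6438 (n = 7), both drugs (n = 7), EGF (n = 3), bFGF (n = 3), the GSK-3 inhibitor (n = 3) or Pexmetinib (n = 3) had been omitted, and 3 libraries came from ENR to which VPA and EPZ6438 had been added at doses that the labels do not give. Recombinant EGF was therefore in every organoid medium except 8C without EGF. The crypts came from mice that were untreated (Normal, with no age in the labels), or from mice aged 8 weeks that had received a single dose of 12 Gy and were sampled on day 1, 2, 3 or 5 (IR), or had received the same dose and daily gavage of VPA at 40 mg/kg and EPZ6438 at 0.6 mg/kg and were sampled on the same days (VE), with 2 libraries in each group. The labels give neither the animals nor the cultures behind a replicate number, nor what the IR mice were gavaged with, so that p-values measure only the spread between these libraries.

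The ligands of this family are made as membrane proteins and are shed by metalloproteases such as ADAM10 and ADAM17, after which they bind the receptor tyrosine kinase EGFR, and some of them ERBB4. ERBB2 has no known ligand of its own and ERBB3 has little kinase activity, so both signal as partners of the other receptors, ERBB3 after binding neuregulins. LRIG1 lowers the amount of these receptors and marks a population of intestinal stem and progenitor cells. In the intestine EGFR signalling drives crypt cell proliferation, EGF is a standard component of organoid media, and amphiregulin and epiregulin rise in regenerating epithelium.

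Among the 6 ligands, 4 are neighbours on mouse chromosome 5 (mm10). Epgn lies at chr5:91027464-91035215, Ereg at chr5:91074622-91093646 and Areg at chr5:91139599-91148432, all on the plus strand, and Btc lies at chr5:91357261-91402994 on the minus strand. These 4 genes are the only protein-coding genes of the 375531 bases that they span. The promoters of 3 of them are shown because these neighbours lay at such different levels in the same organoids, with a mean over 49 libraries of 230 TPM for Areg, 20.0 TPM for Btc and 0.099 TPM for Epgn. Each sequence is the coding-strand reference of RefSeq (GRCm38.p6) from 250 bases before to 50 bases after the annotated start, and capitals mark motif matches.
Areg: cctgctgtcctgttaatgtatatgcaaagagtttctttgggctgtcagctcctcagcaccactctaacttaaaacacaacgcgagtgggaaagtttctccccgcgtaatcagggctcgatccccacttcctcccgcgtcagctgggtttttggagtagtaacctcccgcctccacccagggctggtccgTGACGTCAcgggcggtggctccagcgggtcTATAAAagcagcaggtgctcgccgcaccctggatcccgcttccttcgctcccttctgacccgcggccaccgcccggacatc
Btc: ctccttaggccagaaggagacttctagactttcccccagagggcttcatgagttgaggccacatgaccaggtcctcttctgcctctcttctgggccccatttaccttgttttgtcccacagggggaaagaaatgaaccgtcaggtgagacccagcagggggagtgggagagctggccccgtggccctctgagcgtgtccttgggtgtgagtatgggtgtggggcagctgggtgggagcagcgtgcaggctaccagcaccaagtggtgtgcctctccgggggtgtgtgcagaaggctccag
Epgn: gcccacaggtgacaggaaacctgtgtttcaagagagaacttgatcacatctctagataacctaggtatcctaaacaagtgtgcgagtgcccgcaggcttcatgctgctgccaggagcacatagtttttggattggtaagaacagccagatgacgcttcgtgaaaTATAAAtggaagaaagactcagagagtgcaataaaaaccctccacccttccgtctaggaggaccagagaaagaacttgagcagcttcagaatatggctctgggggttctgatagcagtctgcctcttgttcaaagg

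The Areg promoter (chr5:91139349-91139648, plus strand) held the full cyclic AMP response element TGACGTCA from 61 bases before the start and a TATAAA motif from 31 bases before it. The Epgn promoter (chr5:91027267-91027566, plus strand) held TATAAA from 86 bases before the RefSeq start, which lies 53 bases after the gene start given above, so that the motif begins 33 bases before the latter, and the Btc promoter (chr5:91402945-91403244, minus strand) held none of the 4 motifs searched. These were TGACGTCA, TGANTCA (AP-1), GGAATG (TEAD) and TATAAA, read on both strands, with no overlap between the matches found. Of 32851 promoters of the same length, 1.79% held TGACGTCA, 7.81% held TGANTCA, 14.7% held GGAATG and 13.6% held TATAAA. The Areg promoter held 21 CpG dinucleotides, whereas the Btc and Epgn promoters held 5 each, beside a median of 7 over all promoters. In total 7 of the 10 genes had a promoter entry, and among the others Lrig1 held the most CpG dinucleotides (35), followed by Tgfa (24), Erbb2 (21, with GGAATG from 88 bases before the RefSeq start) and Egfr (15). A match describes letters in this window and is not a bound site. The remaining genes lie on chromosome 6 (Tgfa, chr6:86195223-86275719; Lrig1, chr6:94604529-94700158), chromosome 10 (Erbb3, chr10:128567523-128589652), chromosome 11 (Egfr, chr11:16752203-16918158; Erbb2, chr11:98412470-98437716) and chromosome 18 (Hbegf).

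Defining markers were checked against the labelled tissue. Epcam, an epithelial surface protein, ranged from 1410 to 2100 TPM in organoids and from 239 to 911 TPM in crypts, whereas the leukocyte marker Ptprc reached 0.129 TPM in organoids and 10.7 TPM in crypts, and the fibroblast marker Col1a1 reached 2.23 and 1.28 TPM. The stem cell marker Lgr5 lay between 25.3 and 112 TPM in organoids but between 0.0912 and 1.59 TPM in crypts, the Normal crypts included. Column sums ran from 983801 to 988144 TPM in organoids and from 819346 to 910935 TPM in crypts. Members were therefore not compared between organoids and crypts, and the marker levels are only given side by side. Mitochondrial transcripts took 1.52 to 6.64% of organoid libraries and 10.6 to 48.4% of crypt libraries. Correlation between replicates of a group was 0.9686 to 0.9977 and no libraries were identical. Among organoids, replicate number 7 of ENR, 8C, 8C without EPZ6438 and 8C without both drugs stood apart for several ligands, and within 8C numbers 4 to 6 stood apart from 1 to 3, so results that rest on them are given with and without them.

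In organoids the order of the family depended on the condition. Over the 49 libraries Lrig1 had the highest median (194 TPM), followed by Areg (amphiregulin, 118 TPM), Erbb3 (112 TPM), Erbb2 (92.4 TPM) and Hbegf (heparin-binding EGF-like growth factor, 54.7 TPM). By group mean Lrig1 lay above Areg in ENR (176 against 116 TPM) and in the omissions of VPA, EPZ6438 or both, and below it in 8C (180.1 against 342 TPM). Btc (betacellulin), Tgfa (transforming growth factor alpha) and Egfr were lower, with medians of 19.0, 18.6 and 10.5 TPM. Thus the partner receptors Erbb2 and Erbb3 were each present at several times the TPM level of Egfr, in every library. Ereg (epiregulin) reached 1 TPM in 15 of 49 libraries, and Epgn (epigen) in none, with 0.414 TPM as its highest value and 0 in 27 libraries, so Epgn entered no test. Areg, Hbegf and Ereg varied most, from 48.9 to 705 TPM, from 19.5 to 490 TPM and from 0 to 27.5 TPM, whereas Egfr stayed between 5.05 and 15.3 TPM and Lrig1 between 120.03 and 314 TPM. When the 10 conditions were ordered by mean level, the gap between neighbours exceeded the larger SD in only 2 of all steps over the 10 genes, from 8C to 8C without EGF at the low end for Erbb2 and between adjacent middle conditions for Egfr.

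**Figure D1:**
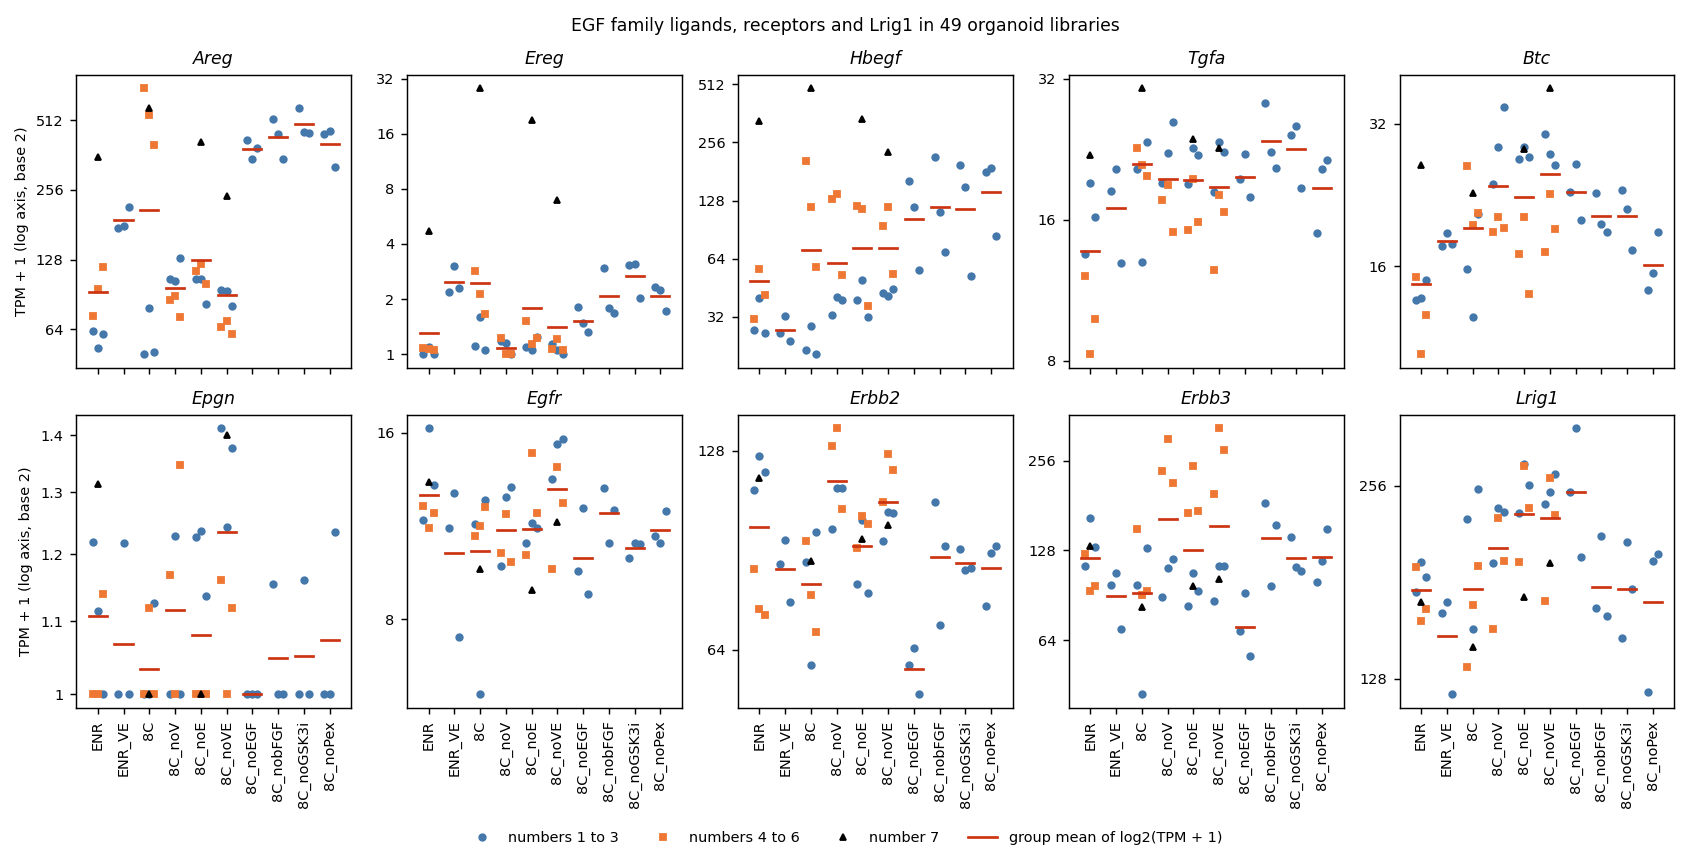
TPM + 1 on a log axis for each of the 10 genes in the 10 organoid conditions, with a point for each library, shaped by replicate number (1 to 3, 4 to 6 and 7), and bars for the group means of log2(TPM + 1). Areg in 8C falls into 3 libraries at 48.9 to 78 TPM and 4 libraries at 400 to 705 TPM, and Erbb2 in 8C without EGF (53.8 to 63.4 TPM) lies low among the conditions.

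The 2 media were compared first, to ask whether the 8C medium changed the family. Areg read 61.7, 52, 60, 72.2, 94.6, 118 and 355 TPM in ENR replicates 1 to 7 and 48.9, 78, 49.8, 705, 538, 400 and 576 TPM in 8C replicates 1 to 7. The 8C libraries numbered 1 to 3 lay within or just below the ENR range, and those numbered 4 to 7 lay above every ENR library. Over all libraries the difference in log2(TPM + 1) was 1.17 ± 0.66 (SE; limma, adjusted p = 0.191, n = 7 and 7). Hbegf behaved similarly in 8C, with 20.5, 27.8 and 19.5 TPM in numbers 1 to 3, 205, 117 and 57.2 TPM in numbers 4 to 6 and 490 TPM in number 7. In ENR it read 25.3 to 55.8 TPM in numbers 1 to 6 and 330 TPM in number 7, so that the groups overlapped and the difference was 0.52 ± 0.72 (limma, adjusted p = 0.629). No member was called, that is, none passed an adjusted p under 0.05 with a change of at least 2-fold (0 of 9 tested, limma; 1 at an unadjusted p under 0.05), where 15.2% of 12665 genes were called. The members' median difference was 0.39, beside 0.08 over all genes.

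Tgfa passed the p threshold with a smaller change. It read 12.6, 18.2, 15.2, 11.1, 7.26, 8.85 and 21 TPM in ENR and 19.5, 12, 22.4, 21.7, 19.9, 18.8 and 29.6 TPM in 8C, and the ranges overlapped. The difference was 0.61 ± 0.22 (limma, adjusted p = 0.0414). Ereg stayed at or below 0.1 TPM in ENR numbers 1 to 6 and between 0.0551 and 1.84 TPM in 8C numbers 1 to 6, with 3.71 and 27.5 TPM in number 7. The receptors were slightly lower in 8C without passing the test, at -0.30 ± 0.16 for Egfr, -0.29 ± 0.15 for Erbb2 and -0.38 ± 0.22 for Erbb3, and Lrig1 differed by 0.00 ± 0.13.

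The split among the 8C libraries was then described within that condition. Numbers 4 to 6 exceeded numbers 1 to 3 by 3.19 ± 0.25 for Areg and by 2.27 ± 0.40 for Hbegf (SE, n = 3 and 3). The sets were divided with the values of these genes known, so no p-value is given for them, and the p-values of Areg and Hbegf within a set are not independent evidence of the split. The other 6 of 8 members fitted differed by between -0.35 (Lrig1) and 0.46 (Btc), with adjusted p-values of at least 0.228 (limma), where 5.61% of all genes were called. Within numbers 4 to 6, Areg rose in 8C against ENR by 2.51 (limma, adjusted p = 0.00014), Tgfa by 1.09 (0.000354) and Hbegf by 1.42 (0.0489), 3 members where 17.3% of genes were called. Within numbers 1 to 3 the same differences were -0.01 (adjusted p = 0.982), 0.19 (0.608) and -0.39 (0.224), where 17.7% of genes were called. Between the sets the 8C against ENR difference differed by 2.51 ± 0.33 for Areg and 1.81 ± 0.53 for Hbegf. These values rest on the same division, so no p-value is given for them either. For Tgfa it differed by 0.90 ± 0.31 (limma, adjusted p = 0.0656), in a test that called 17.3% of genes. The labels name no batch for these numbers.

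**Figure D2:**
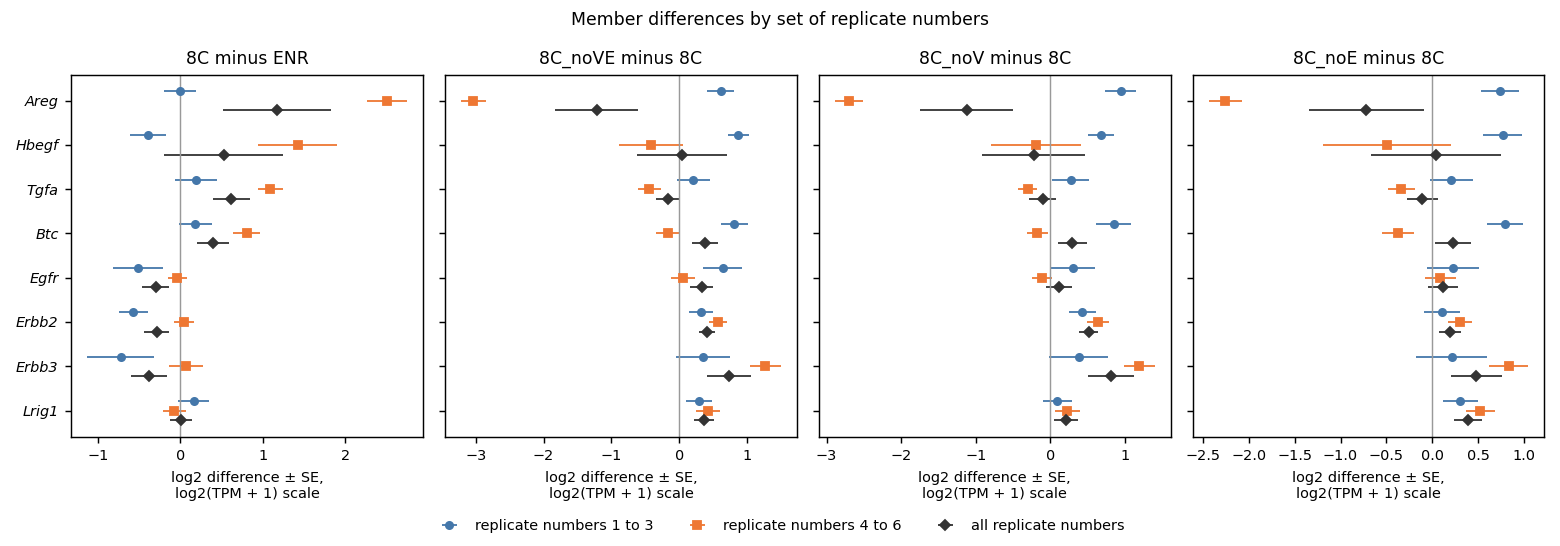
Difference in log2(TPM + 1) with its SE for the members in 8C against ENR and in the drug omissions against 8C, from separate fits of the libraries numbered 1 to 3 and of those numbered 4 to 6. For Areg the sets lie far apart, at -0.01 and 2.51 for 8C against ENR and at 0.61 and -3.04 for the omission of both drugs.

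The omissions of VPA and EPZ6438 asked what these drugs add to the levels seen in 8C. Without both drugs Areg read 93.7, 92.6, 79.3, 64.3, 68.3, 60.2 and 239 TPM, without VPA 104, 102, 130, 84.9, 88.2 and 71.5 TPM, and without EPZ6438 105, 105, 81.4, 114, 122, 99.5 and 411 TPM. In each omission numbers 1 to 6 stayed below every 8C library numbered 4 to 7, and Areg lay above its same-numbered 8C library for numbers 1 to 3 and below it for numbers 4 to 6. The differences from 8C were -1.22 ± 0.62 (limma, adjusted p = 0.177), -1.12 ± 0.63 (0.288) and -0.72 ± 0.63 (0.717). Within numbers 4 to 6 Areg fell by 3.04 (adjusted p = 4.86e-06), 2.70 (2.17e-05) and 2.25 (6.02e-05). Within numbers 1 to 3 the differences were 0.61 (0.0694), 0.94 (0.0341) and 0.73 (0.0801). Numbers 4 to 6 called 2, 2 and 1 members, where 12.8%, 9.07% and 5.84% of genes were called, and numbers 1 to 3 called 0 members (limma), where 12.5%, 5.28% and 6.11% were. Between the sets these Areg differences differed by -3.65 ± 0.29, -3.64 ± 0.30 and -2.99 ± 0.30. The 8C libraries were divided with their Areg values known, so no p-value is given. The tests between sets called 11.5%, 10.9% and 6.64% of all genes. No member was called over all numbers without both drugs (0 of 9, 3 at an unadjusted p under 0.05, 10.7% of genes called), without VPA (0 of 9, 2, 5.2%) or without EPZ6438 (0 of 9, 1, 4.2%).

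Erbb2 rose by less than 2-fold when VPA or both drugs were omitted, and Erbb3 did not pass the test over all numbers. Erbb2 read 96.6, 112, 112, 129, 138 and 103 TPM without VPA, against 86, 59.8, 95.3, 92.4, 76.4, 67.2 and 86.1 TPM in 8C, and the groups did not overlap. Its difference was 0.52 ± 0.13 (limma, adjusted p = 0.0156), and 0.41 ± 0.12 without both drugs (0.0161, 92.4 to 125 TPM), both under 2-fold. These fits are unpaired, although same-numbered libraries met the rule for pairing without VPA (lowest r 0.136). With the replicate number as a block the count of members called without VPA did not change. Without EPZ6438 it was 0.19 ± 0.12 (adjusted p = 0.549). Erbb3 read 88.6, 111, 119, 236, 300 and 215 TPM without VPA and 85.9, 113, 113, 197, 328, 277 and 101 TPM without both drugs, against 97.4, 41.2, 129, 151, 89.9, 93 and 81.9 TPM in 8C. The high values were those numbered 4 to 6, within which Erbb3 rose by 1.19 without VPA (limma, adjusted p = 0.00319) and by 1.27 without both drugs (0.00294). Over all numbers its differences were 0.81 ± 0.31 (adjusted p = 0.11) and 0.74 ± 0.32 (0.114), and the sets were not shown to differ (adjusted p = 0.318 and 0.277). Lrig1 was higher by 0.37 ± 0.15 without both drugs (adjusted p = 0.0959) and by 0.39 ± 0.15 without EPZ6438 (0.199), neither of which passed.

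Btc also differed between the sets, as a rise in numbers 1 to 3. In numbers 1 to 3 it read 29.4, 26.6 and 25.2 TPM without both drugs, against 14.8, 11.5 and 19.6 TPM in 8C, and in numbers 4 to 6 it read 16.1, 21.8 and 18.1 TPM against 25, 18.6 and 19.7 TPM. The difference was 0.81 within numbers 1 to 3 (limma, adjusted p = 0.0288) and -0.17 within numbers 4 to 6 (0.499), and the sets differed by -0.98 ± 0.27 (0.0358). Such a set difference was also found for Btc without VPA (-1.02 ± 0.27, limma, adjusted p = 0.0338) and without EPZ6438 (-1.17 ± 0.28, 0.0267). Against ENR, 8C without both drugs had more Btc by 0.78 ± 0.20 (limma, adjusted p = 0.0251) and more Lrig1 by 0.37 ± 0.10 (0.0339). These were changes of under 2-fold, so 0 of 8 members were called (2 at an unadjusted p under 0.05), where 3.19% of genes were called. Numbers 4 to 6 called 2 members, Erbb3 (1.33, limma, adjusted p = 0.00234) and Hbegf (1.01, 0.0497), where 4.59% of genes were called. Numbers 1 to 3 called none (6.71%), with -0.38 (0.0694) for Erbb3. With the replicate number as a block, which the numbers bear out for this pair, Tgfa also passed the p threshold (0.45, limma, adjusted p = 0.0422) at under 2-fold, where 3.61% of genes were called.

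The omissions of a single drug were also set against the omission of both, to ask what either drug adds alone. Without VPA against without both drugs, 0 of 8 members were called (0 at an unadjusted p under 0.05, 3.22% of genes), and without EPZ6438 against without both, 0 of 9 (1, 4.18%). The Areg differences were 0.10 ± 0.27 and 0.50 ± 0.35, with 95% intervals from -0.48 to 0.67 and from -0.23 to 1.23. Same-numbered libraries were paired here (lowest r 0.709 and 0.647), and with the replicate number as a block both Areg differences passed the p threshold, at 0.33 ± 0.07 (limma, adjusted p = 0.00595, higher in 6 of 6 pairs) and 0.50 ± 0.11 (0.00597, higher in 7 of 7). In the block Lrig1 (-0.19, 0.00736, lower in 6 of 6 pairs) and Egfr (-0.25, 0.0367, lower in 5 of 6) passed without VPA, and Erbb2 (-0.22, 0.00755) and Erbb3 (-0.26, 0.0194), each lower in 7 of 7 pairs, passed without EPZ6438. All were under 2-fold, in fits that called 3.85% and 4.62% of genes. The VPA by EPZ6438 interaction, which asks whether the effects of the drugs add on the log scale, called 0 of 9 members (limma; 0 at an unadjusted p under 0.05) and 0.653% of genes over all numbers, where the Areg interaction was 0.62 ± 0.75. The Areg interaction turned sign between the sets, at 1.92 in numbers 4 to 6 and -1.07 in numbers 1 to 3. Areg was the 1 member called in each, where 3.87% and 2.96% of genes were called. Since the 8C libraries were divided with their Areg values known, no p-value is given and nothing about the drugs is read from the turn.

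In ENR the addition of both drugs was followed in 3 libraries, numbered 1 to 3. Areg read 174, 178 and 216 TPM with the drugs, above ENR numbers 1 to 6 (52 to 118 TPM) and below number 7 (355 TPM). The difference was 1.03 ± 0.49 over all libraries (limma, adjusted p = 0.184, n = 3 and 7) and 1.35 without ENR number 7 (0.00211). It was 1.69 (adjusted p = 2.02e-05) against ENR numbers 1 to 3 and 1.01 (0.00107) against numbers 4 to 6, where 11% and 13.7% of genes were called. Both of these tests used the same 3 libraries with the drugs, so they are not independent. The call over all libraries was lost through the single ENR library numbered 7. Ereg read 1.2, 2.05 and 1.29 TPM with the drugs, also above ENR numbers 1 to 6, and was under the mean of 1 TPM needed for a test. Hbegf (22.9 to 31.1 TPM) lay within the range of ENR numbers 1 to 6 or just below it. Over all libraries 0 of 8 members were called (1 at an unadjusted p under 0.05, 8.87% of genes), and in 8C against ENR with the drugs 0 of 9 (0, 3.87%). The latter comparison also turned with the 8C libraries used. The difference with 8C numbers 4 to 6 was 1.50 for Areg and 2.04 for Hbegf, where 8.5% of genes were called. With 8C numbers 1 to 3 it was -1.70 for Areg, where 5.6% were. Since 8C was divided with the values of both genes known, no p-value is given for them. The drugs by medium interaction, which asks whether the drugs act alike in 8C and ENR, called 0 of 9 (1, 0.643%) over all numbers. With numbers 4 to 6 of the other groups, against ENR with the drugs numbered 1 to 3, it called Erbb2 (-0.72, limma, adjusted p = 0.0169), Erbb3 (-1.06, 0.0437) and Areg (2.03), where 15.8% of genes were called. In numbers 1 to 3 it called Btc (-1.18, limma, adjusted p = 0.0107) and Areg with the opposite sign (-2.30), where 4.65% were. The Areg values rest on the same division of 8C, so they are a description.

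The omission of EGF was the direct test of the ligand in the medium. Erbb2 read 59.6, 63.4 and 53.8 TPM without EGF, at the lower end of or below the 8C range of 59.8 to 95.3 TPM, and the groups overlapped through a single 8C library. The difference was -0.43 ± 0.16 (limma, adjusted p = 0.281, n = 3 and 7), with a 95% interval from -0.77 to -0.09. Lrig1 read 249, 314 and 197 TPM against 132 to 252 TPM in 8C, a difference of 0.50 ± 0.21 (adjusted p = 0.352). Egfr, the receptor of the omitted ligand, read 8.58, 11.1 and 7.77 TPM against 5.05 to 11.5 TPM, a difference of -0.04 ± 0.23 (0.957), and Erbb3 read 68, 91 and 55.8 TPM, a difference of -0.38 ± 0.31 (0.643). The other EGFR ligands were not called either, with 0.25 ± 0.21 for Btc, -0.09 ± 0.22 for Tgfa, -0.69 ± 0.81 for Ereg, 0.53 ± 0.91 for Hbegf and 0.88 ± 0.87 for Areg. Of 9 members 0 were called (2 at an unadjusted p under 0.05), where 0.451% of genes were called, and the members' median difference was -0.04.

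Areg without EGF read 421, 347 and 388 TPM, which is above 8C numbers 1 to 3 and just below or within numbers 4 to 7. All 12 libraries of the 4 single omissions of EGF, bFGF, the GSK-3 inhibitor and Pexmetinib held 321 to 576 TPM of Areg, and none was as low as 8C numbers 1 to 3. Against those 3 libraries, which stand apart by their low Areg and Hbegf, the Areg differences were 2.72 without EGF, 2.88 without bFGF, 3.07 without the GSK-3 inhibitor and 2.79 without Pexmetinib, and those of Hbegf were 2.13, 2.35, 2.31 and 2.60. They are a description, since the choice of these libraries fixes them, and nothing is read from the calls of both genes in each, where 3.56%, 5.53%, 7.12% and 6.25% of genes were called. Against 8C numbers 4 to 6 the Areg differences were -0.47, -0.31, -0.12 and -0.40 and none was called, where 2.67%, 0.00784%, 0.0551% and 0.821% of genes were called. Whether Areg and Hbegf differed thus depended on the 8C libraries used, for each of the 4 omissions. Deviations of the libraries without bFGF, the GSK-3 inhibitor and Pexmetinib correlated with those of 8C numbers 4 to 6 when their numbers were shifted by 3 (lowest r 0.284, 0.188 and 0.220), and not with 8C numbers 1 to 3. With the shifted numbers as a block the adjusted p-values for Areg were 0.157, 0.596 and 0.0746 (limma). With the EGF omission set against 8C numbers 4 to 6 and numbers shifted by 3 as a block, the differences of Areg (-0.47, limma, adjusted p = 0.0319), Erbb2 (-0.40, 0.0379) and Lrig1 (0.62, 0.0436) passed the p threshold at under 2-fold, but the shifted numbers were not shown to pair these libraries (lowest r -0.020). Over all 8C libraries 0 of 9 members were called without bFGF (0 at an unadjusted p under 0.05, 0.00779% of genes), without the GSK-3 inhibitor (0, 0%) and without Pexmetinib (0, 0.482%).

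Marker genes of epithelial cell types moved with the media as well. The summed level of 4 Paneth cell genes was 7850 to 9410 TPM in ENR, 767 to 2750 TPM in 8C, 3730 to 4200 TPM without EGF and 6570 to 10500 TPM without both drugs. That of 4 stem cell genes was 1920 to 3540, 453 to 1480, 1690 to 2450 and 1410 to 2570 TPM, and that of the enterocyte genes 1590 to 8340, 1180 to 3470, 375 to 400.0 and 986 to 3180 TPM. Their part in the results was not tested, and in bulk RNA fewer cells of a type and less RNA per cell cannot be told apart.

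Of 22 other genes of the pathway, 16 to 18 were tested in each organoid comparison, and Egf, Erbb4, Nrg1 and Nrg3 were under the mean level needed for a test in all of them. Nrg2 (neuregulin 2, a ligand of ERBB3 and ERBB4) was listed at 0 in all 7 ENR libraries and read 1.81, 2.15, 1.40, 6.15, 7.50, 5.35 and 5.56 TPM in 8C. It was low in every 8C library numbered 1 to 3 relative to the others, yet present there. Nrg2 fell by 2.11 ± 0.28 without both drugs (limma, adjusted p = 2.11e-05), by 1.99 ± 0.29 without VPA (0.000275) and by 2.15 ± 0.27 without EPZ6438 (5.95e-05), and stayed at or below 0.469 TPM in all of these 20 libraries. The interaction of the drugs was 2.03 ± 0.31 (limma, adjusted p = 0.00036). Without EGF it read 5.55, 3.35 and 3.01 TPM, a difference of 0.03 ± 0.40 (0.977). Lrig3, a relative of Lrig1, fell in 8C against ENR by 1.17 ± 0.12 (limma, adjusted p = 1.19e-06), from 25.7 to 36.2 TPM down to 8.88 to 16.1 TPM, with no overlap. No other gene of the 22 was called in an organoid comparison.

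Genes with the most similar pattern were ranked by Pearson correlation over the 10 condition means, among 12625 genes, as a description over points that share media and replicate numbers. Nearest to Areg were Rmnd5b (r = 0.983), Plekhm3 (0.977) and Elovl1 (0.976), and nearest to Hbegf were Pbxip1 (0.976), Edn1 (0.956) and Atp9b (0.955). Tgfa was most like Ppp3ca (0.977), Btc like Wdr73 (0.956), Egfr like Rint1 (0.963), Ereg like Slc22a18 (0.953) and Lrig1 like Slc14a1 (0.979). The closest pair of members was Erbb2 and Erbb3 (0.899), followed by Btc and Lrig1 (0.730), whereas Areg and Erbb2 ran in opposite directions (-0.678). Areg and Hbegf reached 0.647.

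In crypts the comparisons asked how the family changed after irradiation and with the drugs. After irradiation Btc rose and Hbegf fell on every day tested, though the day 1 calls were lost in a fit of only these groups and, for Hbegf, after quantile normalization. Erbb2, Erbb3 and Lrig1 fell by day 3 and overlapped the Normal libraries on day 5. With the drugs the levels on day 3 were higher for 7 of 9 members tested, and for 2 after quantile normalization. All 9 groups were fitted together, and the SE of a difference was 0.25 for Ereg and Btc, 0.29 for Tgfa, 0.31 to 0.37 for the others. The median of all genes itself moved, by -0.36, -0.61, -1.03 and 0.27 against Normal on days 1, 2, 3 and 5 of IR and by 0.27, 0.42, 0.69 and 0.03 in VE against IR. Each difference is therefore to be read against this shift, and quantile normalization, which removes it, is given where it changes a call.

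**Figure D3:**
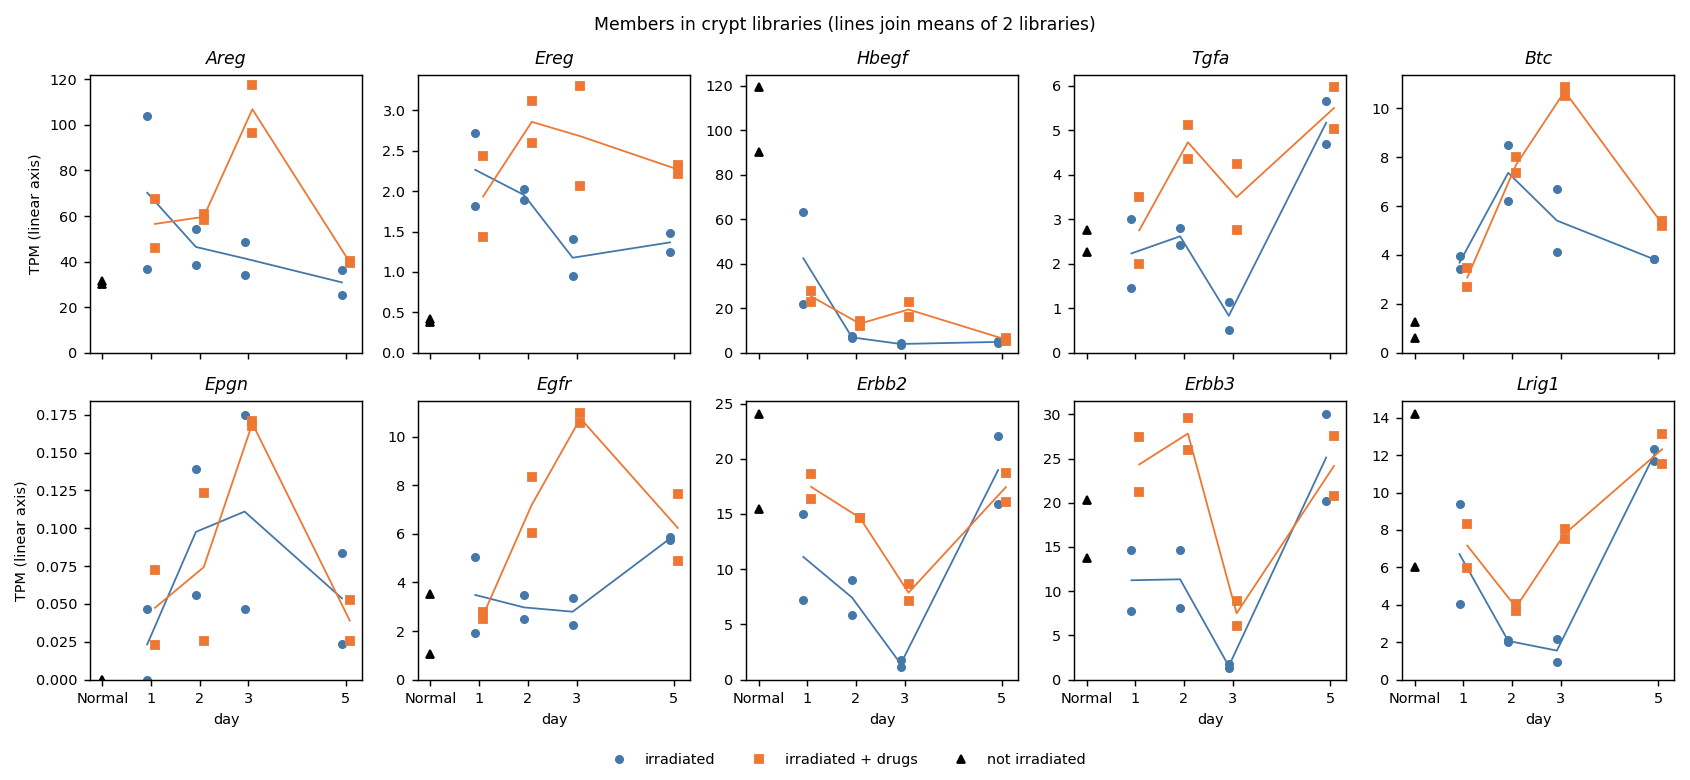
TPM on a linear axis for each of the 10 genes in crypts, with a point for each of the 2 libraries of Normal, IR and VE groups by day and lines through the group means. Hbegf drops from 90 and 119 TPM in Normal to 3.69 and 4.2 TPM on day 3 of IR, while Btc climbs from 0.603 and 1.24 TPM to 4.13 and 6.68 TPM.

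Hbegf read 90 and 119 TPM in Normal crypts and 63.1 and 21.7 TPM on day 1, 7.32 and 6.5 TPM on day 2, 3.69 and 4.2 TPM on day 3 and 5.25 and 4.52 TPM on day 5 of IR. All irradiated libraries lay below both Normal libraries. It fell by 1.45 on day 1 (limma, adjusted p = 0.0184), 3.73 on day 2 (4.05e-06), 4.40 on day 3 (3.43e-07) and 4.15 on day 5 (1.54e-06). The falls on days 2, 3 and 5 held under quantile normalization (-3.07, -3.17 and -4.36). The day 1 call did not (-1.04, adjusted p = 0.0774), and it was also lost without the second IR library of that day (-0.71, 0.195) or without the second Normal library (-1.25, 0.124). Normal crypts also held more leukocyte transcripts, with 7 marker genes summing to 35.1 and 47.1 TPM, against 10.1 to 33.8 TPM on days 1 to 3 and 5.76 and 11.6 TPM on day 5 of IR, and of these genes Cd79a and Adgre1 were each at 0 in 1 of the 18 crypt libraries and the others in none. The part of these cells in the fall of Hbegf was not tested.

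Btc read 0.603 and 1.24 TPM in Normal crypts and 3.95 and 3.42, 6.23 and 8.49, 4.13 and 6.68, and 3.82 and 3.82 TPM on days 1, 2, 3 and 5 of IR, with no overlap on any day. It rose by 1.30 (limma, adjusted p = 0.00522), 2.13 (2.39e-05), 1.73 (3.24e-05) and 1.35 (0.00131), and by 1.63, 2.74, 2.91 and 1.14 after quantile normalization. With only Normal and day 1 in the fit, the day 1 calls of Btc (limma, adjusted p = 0.15), Ereg (0.159) and Hbegf (0.214) were lost. Ereg read 0.417 and 0.376 TPM in Normal, 2.71 and 1.81 TPM on day 1 and 1.88 and 2.02 TPM on day 2, and it rose by 1.21 (adjusted p = 0.00693) and 1.08 (0.00268). On days 3 and 5 it read 0.945 to 1.49 TPM, again above Normal. The differences of 0.63 and 0.76 (limma, adjusted p = 0.0299 and 0.0327) were under 2-fold on the log2(TPM + 1) scale. In TPM the mean rose by more than 2-fold, from 0.396 in Normal to 1.18 on day 3 and 1.37 on day 5. After quantile normalization the day 3 difference of Ereg was 1.63 (3.6e-05), so that it was called.

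Areg did not pass the test after irradiation at the deposited scale. It read 30 and 31.4 TPM in Normal and 104 and 36.6, 38.7 and 54.1, 34.2 and 48.6, and 25.5 and 36.2 TPM on days 1, 2, 3 and 5 of IR, above both Normal libraries on days 1 to 3. The differences were 0.99 (limma, adjusted p = 0.0811), 0.56 (0.199), 0.40 (0.325) and -0.01 (0.985). After quantile normalization Areg was called on day 1 (1.39, 0.0394), day 2 (1.06, 0.0441) and day 3 (1.39, 0.009), and on day 1 it was also called without the second IR library (1.73, 0.00596). Tgfa read 2.27 and 2.76 TPM in Normal and ranged from 0.516 TPM on day 3 to 5.65 TPM on day 5 of IR. Its differences on these days were -0.96 (limma, adjusted p = 0.00805) and 0.81 (0.0496), both under 2-fold on the log2(TPM + 1) scale. In TPM the mean changed by more than 2-fold, from 2.51 in Normal to 0.832 on day 3 and 5.17 on day 5. After quantile normalization the day 3 difference of Tgfa was 0.02 (0.959) and that of day 5 was 0.59 (0.0695), so neither passed. Leaving out the second IR library of day 3 gave a call for Tgfa (-1.21), as did leaving out the first Normal library (-1.06). Epgn was listed at 0 in both Normal libraries and stayed at or below 0.175 TPM in every crypt library.

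The partner receptors and the brake fell and returned. Erbb2 read 15.5 and 24.1 TPM in Normal, 15 and 7.19 TPM on day 1, 9.01 and 5.84 TPM on day 2, 1.1 and 1.74 TPM on day 3 and 22.1 and 15.9 TPM on day 5 of IR. Erbb3 read 13.7 and 20.3 TPM, then 14.7 and 7.8, 14.6 and 8.05, 1.26 and 1.78, and 30 and 20.2 TPM on the same days. Day 3 was the low point of both genes, with no overlap with any other group of crypts. On day 3 Erbb2 fell by 3.09 (limma, adjusted p = 2.19e-06), Erbb3 by 2.82 (6.74e-06) and Lrig1 by 2.07 (0.000173), and on day 2 Erbb2 fell by 1.30 (0.00389) and Lrig1 by 1.76 (0.00157). After quantile normalization Erbb2 and Erbb3 were still called on day 3 (-1.94 and -1.64), whereas Erbb2 on day 2 (-0.63) and Lrig1 on day 3 (-0.93) were not. The day 2 call of Erbb2 was also lost without the second Normal library (-0.99). On day 5 the differences of the 3 genes were -0.04, 0.54 and 0.33 and none passed. Lrig1 read 6.05 and 14.2 TPM in Normal and 0.917 and 2.18 TPM on day 3. Egfr was not called on days 1 to 3, at 1.06 and 3.52 TPM in Normal and 1.91 to 5.06 TPM on days 1 to 3, and was called on day 5 (5.77 and 5.86 TPM; 1.16, limma, adjusted p = 0.0325). After quantile normalization Egfr was called on day 2 (1.05, adjusted p = 0.0146) and day 3 (1.54, 0.00107). The day 5 call was lost without either day 5 library, without the first Normal library (0.59, 0.361) and after quantile normalization (0.95).

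In all, IR against Normal called 3 of 9 members on day 1, where 6.92% of genes were called. Of these 2 were higher (1.43% of genes) and 1 lower (5.48%). On day 2 it called 5 members (30.8% of genes), 2 higher (4.55%) and 3 lower (26.2%). On day 3 it called 5 (53.8%), 1 higher (2.56%) and 4 lower (51.3%), and the lower count of day 3 is thus near the share of all genes. On day 5 it called 3 (15.8%), 2 higher (10.2%) and 1 lower (5.61%). The members' median differences were -0.16, 0.04, -0.96 and 0.54. After quantile normalization 3, 6, 7 and 2 members were called on days 1, 2, 3 and 5, where 4.64%, 17.4%, 24.7% and 11.9% of genes were called. The mitochondrial share was 12.7 and 18.1% in Normal and 29.7 and 31.8, 32.6 and 39.9, 37.9 and 48.4, and 11.8 and 12.3% on days 1, 2, 3 and 5 of IR. Genes at 1 TPM or more numbered 8152 and 8564 on day 3 of IR and 9370 to 11089 in all other crypt libraries. The summed level of 4 stem cell genes was 223 and 416 TPM in Normal, 42.8 and 46.9 TPM on day 1, 10.1 and 14.0 TPM on day 2, 14.4 and 17.7 TPM on day 3 and 121 and 170 TPM on day 5 of IR. It was thus low on both days 2 and 3. Enterocyte markers summed to 18200 and 21600 TPM on day 2, 1360 and 4090 TPM on day 3 and 8300 and 9630 TPM on day 5. By group mean the epithelial, goblet, enteroendocrine and tuft sums were also lowest on day 3 among Normal and IR crypts. Paneth cell and endothelial sums were lowest on day 2, and leukocyte and mesenchymal sums on day 5. The part of these sums in the results was not tested.

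**Figure D4:**
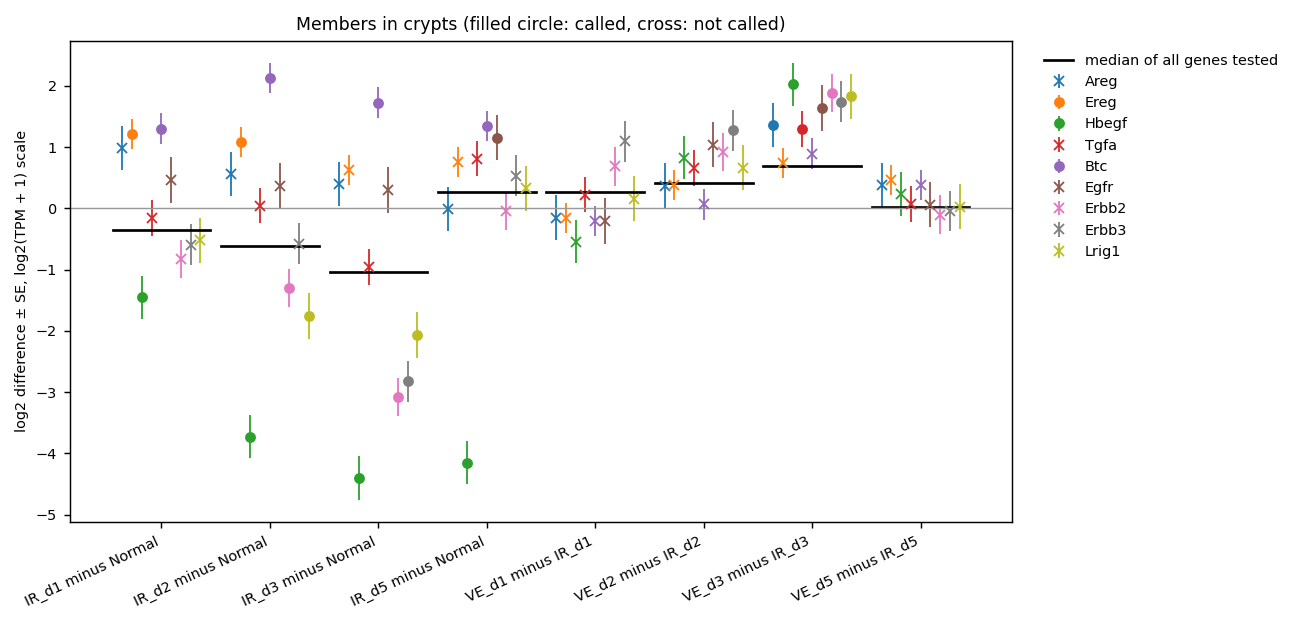
Difference in log2(TPM + 1) with its SE for each member tested, for IR against Normal and for VE against IR on each day, with the median over all genes drawn for each comparison. Btc lies above and Hbegf below zero on every day of IR, and on day 3 the VE differences run from 0.75 (Ereg) to 2.03 (Hbegf), above the median of all genes at 0.69.

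With VPA and EPZ6438 the members were higher on day 3 than in IR crypts of the same day. Hbegf read 22.8 and 16 TPM against 3.69 and 4.2 TPM, Areg 118 and 96.2 TPM against 34.2 and 48.6 TPM, and Egfr 10.6 and 11 TPM against 2.24 and 3.35 TPM. Erbb2 read 8.63 and 7.11 TPM against 1.1 and 1.74 TPM, Erbb3 8.88 and 6.11 TPM against 1.26 and 1.78 TPM, and Lrig1 8.04 and 7.54 TPM against 0.917 and 2.18 TPM. The VE and IR libraries of day 3 did not overlap for any of the 9 members. The share of all genes without such overlap was not counted, so nothing particular to the members is read from this. The differences were 2.03 for Hbegf (limma, adjusted p = 0.000587), 1.36 for Areg (0.00658), 1.30 for Tgfa (0.0023), 1.65 for Egfr (0.00249), 1.88 for Erbb2 (0.000468), 1.74 for Erbb3 (0.000971) and 1.83 for Lrig1 (0.00126). Btc (0.90, limma, adjusted p = 0.00806) and Ereg (0.75, 0.0198) were higher by less than 2-fold on the log2(TPM + 1) scale. In TPM the mean of Ereg differed by more than 2-fold, at 2.68 against 1.18 TPM. These were 7 of 9 members, all higher, where 31.7% of genes were called and 31.6% called higher, and the members' median difference was 1.65 beside 0.69 over all genes.

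After quantile normalization 2 of these members were still called, Hbegf (1.19, limma, adjusted p = 0.0222) and Erbb2 (1.02, 0.0088), where 11.5% of genes were called. Lrig1 (0.99, 0.0231) and Erbb3 (0.85, 0.0328) passed the p threshold at under 2-fold, Areg (0.94, 0.0796), Egfr (0.73, 0.0817) and Tgfa (0.53, 0.0941) did not, and the differences of Ereg (-0.19) and Btc (-0.02) turned negative. Removal of mitochondrial genes before scaling left all 7 calls. The call of Areg was lost without the first IR library of day 3 (1.11, 0.078), and Btc was called without the second (1.19). Leukocyte markers summed to 24.9 and 46.5 TPM and mesenchymal markers to 7.07 and 21.3 TPM in VE on day 3, against 15.6 and 33.8 TPM and 4.08 and 5.2 TPM in IR, and the leukocyte sums overlapped. Without overlap, epithelial markers summed to 6620 and 7040 TPM against 3560 and 5350 TPM. Paneth cell markers summed to 21700 and 31000 TPM against 10700 and 20800 TPM, and stem cell markers to 19.3 and 37.8 TPM against 14.4 and 17.7 TPM. Enteroendocrine markers summed to 180 and 197 TPM against 35.8 and 47.4 TPM, and tuft cell markers to 2.33 and 2.52 TPM against 0.59 and 0.595 TPM. Endothelial markers, also without overlap, summed to 0.844 and 0.936 TPM against 0.158 and 0.238 TPM. Goblet cell and enterocyte sums overlapped. The mitochondrial share was 25.4 and 41.5% against 37.9 and 48.4%. The part of these differences in the result was not tested. Compared with Normal crypts, Hbegf, Erbb2 and Erbb3 of VE on day 3 still lay below both Normal libraries, whereas Areg, Btc, Egfr and Ereg lay above them, a comparison that was not tested.

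On the other days few members passed the test. On day 1, 0 of 9 members were called (limma; 2 at an unadjusted p under 0.05, 0.00926% of genes), and on day 5 also 0 (0, 0.0185%). On day 2, 5 of 9 members were at an unadjusted p under 0.05 (limma; Hbegf, Tgfa, Egfr, Erbb2 and Erbb3), all higher with the drugs. Egfr read 8.35 and 6.06 TPM against 2.47 and 3.47 TPM (1.04, adjusted p = 0.0654) and Erbb2 14.7 and 14.6 TPM against 9.01 and 5.84 TPM (0.92, 0.0569), without overlap. Erbb3 alone was called, at 26 and 29.6 TPM against 14.6 and 8.05 TPM in IR (1.27, limma, adjusted p = 0.0354), where 8.38% of genes were called and 8.31% called higher. It was not called after quantile normalization (0.75), without mitochondrial genes (1.12, 0.155) or without a minimum level (1.27, 0.0839), and it was lost without either VE library or without the second IR library. Averaged over the 4 days Erbb3 was again the only call (1.02 ± 0.17, limma, adjusted p = 0.000814, 3.55% of genes), and it was not called after quantile normalization (0.58), without mitochondrial genes (0.94) or in 8 of the 16 fits that left out 1 library (0.91 to 0.98). Erbb2 was higher by 0.85 ± 0.16 (0.00106), under 2-fold. In all 8 of 9 members, Btc excepted, passed the p threshold over days (9 at an unadjusted p under 0.05), as did 54.9% of all genes, whose median moved by 0.36. After quantile normalization 2 did, Erbb2 (0.39, 0.0364) and Erbb3. A test of whether the drug difference varied over days called none of 9 members and 1.75% of genes, with the lowest adjusted p for Hbegf (limma F test, 0.0505). The adjusted p for Hbegf was 0.158 after quantile normalization. It was 0.0451 with the replicate number as a block, though crypt libraries were not shown to pair by number.

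Of the other pathway genes, 16 were tested in crypts. None was called on day 1 of IR. On day 2 Errfi1, a feedback inhibitor of EGFR, rose by 1.33 (limma, adjusted p = 0.00182) and Lrig3 fell by 1.17 (0.0128). That day 4.55% of all genes were called higher and 26.2% lower. On day 3, 6 fell, namely Lrig3 (-2.39), the shedding cofactors Rhbdf2 (-1.54) and Rhbdf1 (-1.32), and the signalling adaptors Shc1 (-1.31), Gab1 (-1.29) and Sos1 (-1.22). On day 5, 3 rose, the metalloproteases Adam10 (1.31) and Adam9 (1.28) and the phosphatase Ptpn1 (1.34), where 10.2% of all genes were called higher. The lower share of day 3 is below the 51.3% of all genes called lower that day. With the drugs on day 3, 7 were higher than in IR, namely Rhbdf2 (2.06), Rhbdf1 (2.03), Adam9 (1.66), Lrig3 (1.43), Adam10 (1.30), Adam17 (1.23) and Shc1 (1.02), where 31.6% of all genes were called higher. After quantile normalization Errfi1 was called on day 1 of IR (1.41), where 2.95% of all genes were called higher. Errfi1 (1.89) and Ptpn1 (1.04) were called on day 2, where 9.67% were called higher. On day 3 Ptpn1 (1.43) and Lrig3 (-1.63) were called, where 11.1% were called higher and 13.6% lower. On day 5 the same 3 genes were called as without it, where 5.56% were called higher. With the drugs on day 3 only Rhbdf1 (1.24) and Rhbdf2 (1.24) were called, where 8.18% were called higher.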

How the data were processed

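Bulk RNA-seq of 49 organoid and 18 crypt libraries was analysed. RNA was sequenced as paired reads from an unstranded kit, so that reads of overlapping genes on opposite strands (Ereg with Gm19610, Egfr with Egfros, Erbb2 with Mien1, Lrig1 with Slc25a26) cannot be told apart. Per the submitters' processing notes, Trimmomatic 0.39, STAR 2.7.3a, featureCounts and mm10 were used, and the authors deposited TPM per gene. Counts and depth are not used here, so no counting intervals are given. Positions are from the GENCODE annotation of GRCm38.

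Values were analysed as log2(TPM + 1), which understates changes of low genes, with limma 3.58.1 (R 4.3.3; eBayes with trend and robust settings) over genes averaging 1 TPM or more in the fitted libraries. Organoid pairs were fitted alone and the 9 crypt groups together. P-values are two-sided and adjusted by Benjamini-Hochberg over all genes tested. A call needed an adjusted p under 0.05 and 2-fold or more in size on the log2(TPM + 1) scale (no fold minimum for interactions). Fits were tested on simulated data. Alternatives were a pseudocount of 0.1, quantile normalization, removal of 13 mitochondrial genes, no minimum or 5 TPM, no fold minimum, other sets of libraries in the fit, leaving out each library, replicate numbers 1 to 3 or 4 to 6 alone, and the replicate number as a block. All 10 members were named throughout, with other pathway genes where called and the genes of most similar pattern. Members and lists were chosen with earlier results of these data known. Same-numbered libraries were taken as paired where there were 3 or more pairs and every pair's deviations correlated above 0.1, which held for 8C without both drugs against ENR (lowest r 0.313), for 8C without VPA against 8C (0.136) and for the comparisons among the drug omissions, and for no other pair as numbered. With numbers shifted by 3 it also held for the omissions of bFGF, the GSK-3 inhibitor and Pexmetinib against 8C. Figures were drawn with matplotlib 3.10.9.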

Additional observations from a re-analysis of the deposited data

Results flagged for a closer look

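In groups of 4 to 10 libraries, 13 of 50 sets of values held a library far from the others by Dixon's criterion, and 12 of the 13 were the library numbered 7. Chance meets the criterion in about 1 in 20 independent sets, but these sets share libraries. The share over all genes was not counted. Over all genes the lowest correlation between replicates also involved number 7, in 8C (0.9686), without EPZ6438 (0.9750), without both drugs (0.9763) and in ENR (0.9787). Areg was 355.1 TPM in ENR number 7 (others 52.0 to 118), 411.03 TPM in 8C without EPZ6438 number 7 (81.4 to 122) and 239.2 TPM in 8C without both drugs number 7 (60.2 to 93.7). Hbegf was 329.9 TPM in ENR number 7 (25.3 to 55.8), 489.6 TPM in 8C number 7 (19.5 to 205), 336.3 TPM in 8C without EPZ6438 number 7 (31.0 to 119) and 228.5 TPM in 8C without both drugs number 7 (39.7 to 118). Ereg was 3.71 TPM in ENR number 7 (0 to 0.100), 27.5 TPM in 8C number 7 (0.0551 to 1.84), 18.0 TPM in 8C without EPZ6438 number 7 (0.0516 to 0.522) and 5.95 TPM in 8C without both drugs number 7 (0 to 0.205). Btc was 25.2 TPM in ENR number 7 (9.41 to 14.2), and Egfr was 15.3 TPM in ENR number 2 (10.2 to 12.3). The mitochondrial share of the libraries numbered 7 was 4.69% in ENR, 6.31% in 8C, 6.64% without EPZ6438 and 5.47% without both drugs, against 1.64 to 3.81% in the others of these groups, and their enterocyte marker sum was 1590 TPM in ENR (others 4370 to 8340) and 986 TPM without both drugs (2510 to 3180), but within the range of the others in 8C (1780, 1180 to 3470) and without EPZ6438 (1950, 1020 to 3030). Their stem cell marker sum was below all others in ENR (1920, 3020 to 3540), 8C (453, 658 to 1480) and without EPZ6438 (784, 1230 to 2860), and within their range without both drugs (1840, 1410 to 2570). Their leukocyte marker sum was above all others in ENR (9.2, 3.41 to 5.42) and without both drugs (9.16, 5.01 to 7.7), and within their range in 8C (5.65, 2.17 to 16.8) and without EPZ6438 (9.49, 3.76 to 10.4). The part of these values in the ligand levels was not tested.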

How the results depend on the processing

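Counts of members called are given here, against 0 in the main fits unless stated. Without a fold minimum there were 1 for 8C against ENR, 2 for 8C without both drugs against ENR, and 1 each without both drugs and without VPA against 8C, and with all 10 organoid groups in the fit 1 each for 8C against ENR and for both drugs omitted, where 9.35 to 35.1% and 10.7 to 15.2% of all genes were called. In replicate numbers 4 to 6 (with numbers 1 to 3, the only ones, of ENR with the drugs) there were 3 for 8C against ENR, 2 for 8C without both drugs against ENR, 2, 2 and 1 for the omissions of both drugs, VPA and EPZ6438, 1 for ENR with the drugs against ENR, 2 for 8C against ENR with the drugs, 1 for the drug interaction and 3 for drugs by medium, where 3.87 to 17.3% of genes were called. In numbers 1 to 3 there were 2 for each of the omissions of EGF, bFGF, the GSK-3 inhibitor and Pexmetinib, 1 for ENR with the drugs against ENR, 1 for 8C against ENR with the drugs, 1 for the drug interaction and 2 for drugs by medium, where 2.96 to 11% were. With the replicate block there were 1 without EGF, 2 each without bFGF, the GSK-3 inhibitor and Pexmetinib, 1 for ENR with the drugs against ENR, 1 for 8C against ENR with the drugs and 2 for drugs by medium. These calls came where 0.731 to 11.1% of genes were called. The block also took the drugs by day test from 0 members to 1 (Hbegf, adjusted p = 0.0451) and changed no member count in the other comparisons. With numbers shifted by 3 as the block there were 1 for ENR with the drugs against ENR and 2 for 8C against ENR with the drugs, and without number 7 there was 1 for the former (8.53 to 13.8% and 9.79% of genes). The Areg difference reversed for 8C against ENR with the drugs (-1.70, in the block and in numbers 1 to 3), for the drug interaction (-1.07, numbers 1 to 3) and for drugs by medium (-2.30, in the block and in numbers 1 to 3), and the cause was not tested. In crypts, day 1 of IR (3) had 0 with only its groups in the fit (1.32% of genes), and day 5 of IR (3) had 5 without a fold minimum (27.2%). VE against IR on day 2 (1) had 0 after quantile normalization, without a minimum level and without mitochondrial genes, and 2 with only its groups (10.9%). On day 3 (7) it had 2 after quantile normalization, and over days (1) it had 2 with a pseudocount of 0.1 (12.5%), 0 after quantile normalization, 8 without a fold minimum (54.9%) and 0 without mitochondrial genes. Leaving out 1 library gave 0 to 1 for ENR with the drugs against ENR, where 9.79% of genes were called in the fit with 1. In crypts leaving out 1 library leaves 1 in its group, so no counts are given for these fits. With crossed numbers as the block, day 1 of IR called 758 genes (747 in the main fit) and day 2 called 3312 (3322). On day 3 of IR quantile normalization gave 1194 genes higher and 1472 lower, against 276 and 5538. Low levels of Ereg and Epgn, and 2 libraries a group in crypts, limit the precision.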
